A study of Arabidopsis thaliana with 12 samples.

Results

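The transcripts described here are 65 genes whose mean level was lower in staurosporine-treated Arabidopsis plants than in water controls in each of 3 array pairs. They were chosen by the readout itself. A probe had to be paired with exactly 1 gene, lie above 0 on all 12 arrays and fall outside the top 10% of 1-gene probes by mean H2O level, and its quantile-normalized log2 level had to be lower by at least 0.3 in each of the array pairs, which were replicates 1 and 2, replicates 3 and 4, and replicates 5 and 6 of both groups. Of 692 probes with 1 gene, 530 were above 0 on every array, 460 of these were eligible by level, and 71 met the rule, 15.4% of the eligible genes. The same limit was met by 14.4% of all 3256 probes tested, and 10.4% of eligible genes were higher by at least 0.3 in every pair. Particular genes, some of them of photosystems and pigment synthesis, were left out by name, which removed 6 of the 71. The values that chose the members are given below as a description, with no test of any member.

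The study measured total RNA of wild-type Arabidopsis thaliana, ecotype Columbia 0, on 12 arrays of 3439 probes. The control group, called H2O, held 6 arrays from plants given water for 8 h. The treated group, called pStau, held 6 arrays from plants given water for 4 h and then staurosporine for 4 h, at a dose the labels give as 25 mM and pH 5.5, a unit that was not checked against any other source. The labels name no tissue, age or growth condition. Whether each array had its own plants is not stated either, so the spread between arrays may be technical. No cell type could be checked, since 0 of the 25 marker genes listed for guard cells, roots, vascular tissue, pollen and seeds had a probe paired with them alone.

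Staurosporine is a microbial alkaloid that binds the ATP site of a broad range of protein kinases, and it is used in plants to ask which responses need protein phosphorylation. Phosphorylation and its reversal by phosphatases set the activity of transcription factors, of RNA-processing proteins and of many enzymes. A transcript can reach a lower level either because it is made more slowly or because it is degraded faster, and an array of steady-state RNA does not separate these. In bulk RNA, fewer cells of a type and less RNA per cell cannot be told apart either.

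Over the 65 members the mean log2 difference, pStau minus H2O, ran from -1.80 to -0.45 with a median of -0.92, a level 1.89-fold lower in pStau. Fold values throughout come from differences of mean log2 levels, so the means they compare are geometric means. The median over all 3256 probes with a value above 0 on any array was -0.0041. At least 2-fold lower means were found for 26 members, means between 1.5-fold and 2-fold lower for 28, and smaller differences for 11. The differences were unequal between the array pairs. The median member was lower in arrays 1 and 2 by a log2 difference of -0.49. That difference was -0.97 in arrays 3 and 4, and arrays 5 and 6 gave -1.01. The smallest of the 3 differences fell in arrays 1 and 2 for 50 members, and 72.6% of the 908 probes below 0 in all pairs showed the same, a share near that of the members. All probes spread less in arrays 1 and 2 too, with an SD of 0.59 there, 1.04 in arrays 3 and 4 and 1.11 in the last pair. Only 2 members, AT4G33500 and AT3G02450, were at least 2-fold lower in every pair.

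**Figure D1:**
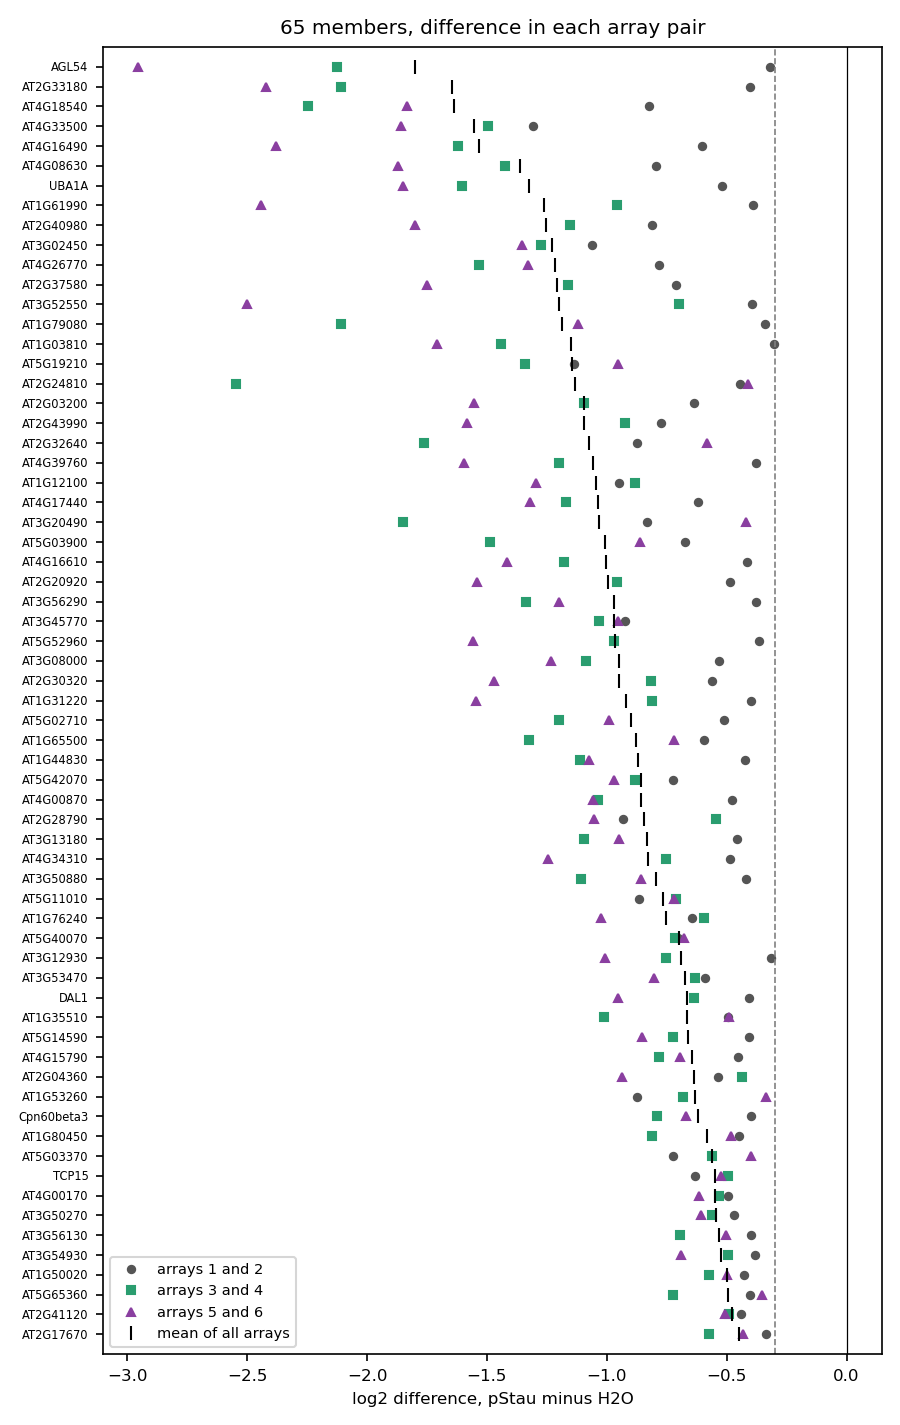
Log2 difference between pStau and H2O (horizontal axis, log2 units) for each of the 65 members (rows, ordered by mean difference) in arrays 1 and 2 (circles), 3 and 4 (squares) and 5 and 6 (triangles), each the mean of 2 pStau arrays minus the mean of 2 H2O arrays. The vertical strokes are means over all 6 arrays per group, from -1.80 to -0.45, and the dashed line is the -0.3 limit of the rule, with most circles lying closest to it.

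Spread between arrays was smaller than these differences for most members. The 2 arrays of a pair differed, at the median member, by 0.11 to 0.16 on the log2 scale in H2O and by 0.21 to 0.30 in pStau. Both pStau arrays lay below both H2O arrays in every pair for 55 of the 65 members, where 19.8% of the eligible genes and 16.7% of all probes did so. All 6 pStau arrays lay below the lowest H2O array for 33 members, and the background for that was 10.2% of eligible genes and 9.28% of all probes tested. These shares are given side by side only, because the rule selected on the same contrast. The pStau arrays scattered more than the H2O arrays for 51 members, with a median SD of 0.45 against 0.26 on the log2 scale. The other eligible genes went the same way, with 0.35 in pStau and 0.26 in H2O.

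The member with the largest mean difference was AGL54, a gene of the MADS-box family of transcription factors. Its normalized intensity, in the linear units of the deposited table after quantile normalization, was 0.524 at the lowest, 0.91 at the median and 0.952 at the highest of the 6 H2O arrays, against 0.0721, 0.215 and 0.536 in pStau. The groups overlapped at 1 point, since H2O array 1 at 0.524 lay below pStau array 2 at 0.536. The geometric mean was 3.48-fold lower in pStau (log2 difference -1.80, SD 0.33 in H2O and 1.06 in pStau, n = 6 per group). Most of that difference lay outside the first pair, which gave -0.32, against -2.12 in arrays 3 and 4 and -2.95 in arrays 5 and 6.

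AT2G33180 and AT4G18540, protein-coding loci with no name in the gene table, came next. AT2G33180 ran from 0.674 over a median of 0.747 to 0.974 in H2O and from 0.093 over 0.205 to 0.726 in pStau (log2 difference -1.64, SD 0.19 and 1.14, n = 6 per group). Here 5 of the 6 pStau arrays lay below every H2O array, and the exception was pStau array 2 at 0.726. AT4G18540, a dimmer probe, ran from 0.207 over 0.25 to 0.438 in H2O and from 0.0324 over 0.0928 to 0.306 in pStau (log2 difference -1.64). Again array 2 of pStau, at 0.306, was the array that overlapped with H2O.

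AT4G33500, of the protein phosphatase 2C family, which removes phosphate from serine and threonine residues, was separated between groups by a wide gap. Its H2O arrays were tightly grouped at 0.986, 1.01 and 1.11 (lowest, median, highest), and its pStau arrays lay at 0.216, 0.368 and 0.442. The highest pStau array lay far below the lowest H2O array, and the mean was 2.94-fold lower (log2 difference -1.55, SD 0.07 in H2O and 0.36 in pStau, n = 6 per group). The 3 pairs gave -1.31, -1.49 and -1.86. AT2G40980, of the protein kinase superfamily, the class of enzyme that staurosporine binds, was also separated, at 0.425 to 0.661 with a median of 0.47 in H2O and 0.137 to 0.261 with a median of 0.235 in pStau (2.39-fold lower, log2 difference -1.26). AT3G54930, a regulatory B subunit family member of protein phosphatase 2A, was lower by a much smaller amount (log2 difference -0.52), and its groups overlapped, with 0.404 to 0.694 in H2O and 0.212 to 0.566 in pStau. These 3 were the members assigned here to phosphorylation, and neither their number nor their direction is evidence about phosphorylation genes in general, since the members were picked for being lower.

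**Figure D2:**
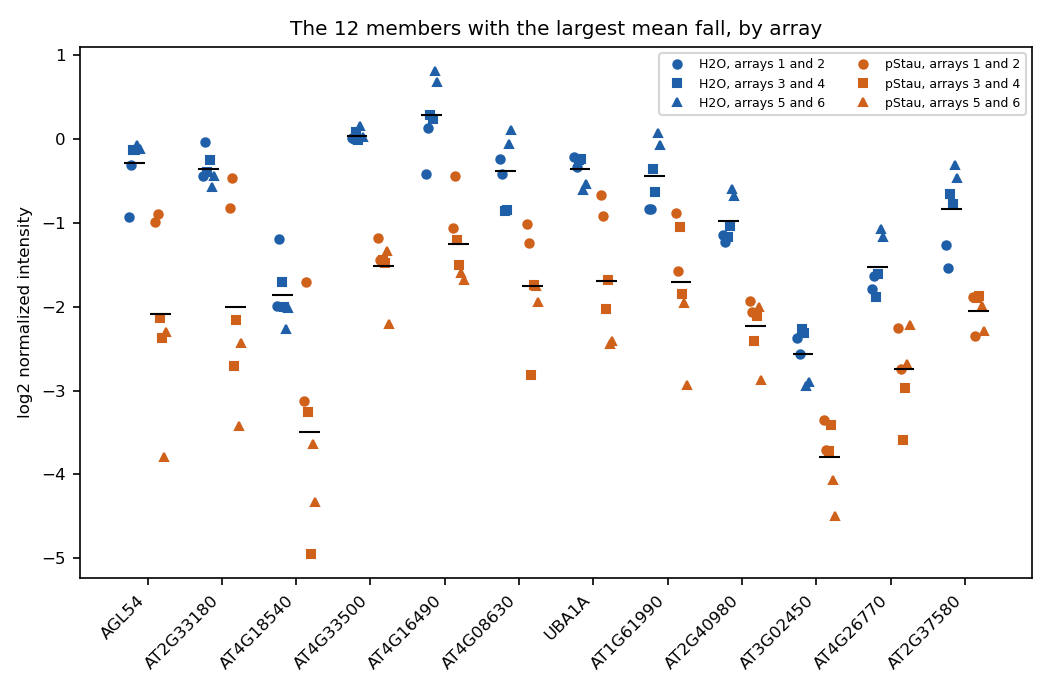
Log2 normalized intensity (vertical axis) of the 12 members with the most negative mean difference on each of the 6 H2O arrays (blue) and 6 pStau arrays (orange), with marker shapes for arrays 1 and 2, 3 and 4, and 5 and 6, and a bar at each group mean. For 9 of the 12 genes every pStau array lies below every H2O array, and for AGL54, AT2G33180 and AT4G18540 1 pStau array, array 2, reaches the H2O range.

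Proteins that bind or process RNA made up 8 of the members with a role given, and 4 of them were at least 2-fold lower. UBA1A, an RNA-binding protein that associates with the nuclear protein UBP1, was at 0.655 to 0.86 with a median of 0.816 in H2O and at 0.184 to 0.63 with a median of 0.278 in pStau (log2 difference -1.33, SD 0.17 and 0.75, n = 6 per group). The groups did not overlap, although pStau arrays 1 and 2 at 0.63 and 0.528 sat well above pStau arrays 3 to 6, whose highest value was 0.311. AT1G61990, of the mTERF family, whose members act on nucleic acids in chloroplasts and mitochondria, ran from 0.558 to 1.04 in H2O (median 0.712) and from 0.13 to 0.542 in pStau (median 0.306), a log2 difference of -1.26. Its 2 lowest H2O arrays, arrays 1 and 2, were only just above its highest pStau array. AT5G19210, a DEAD-box RNA helicase, was 2.21-fold lower with no overlap and with similar values in the 3 pairs (-1.14, -1.34 and -0.95).

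The pentatricopeptide repeat protein AT1G79080, of a family that binds organelle transcripts, was 2.28-fold lower in the mean, with -0.34 in arrays 1 and 2 and -2.11 in arrays 3 and 4. AT3G08000, an RNA recognition motif protein, differed by -0.95 on the log2 scale with no overlap between groups. Enzymes that modify RNA bases were represented by AT2G30320, of the pseudouridine synthase family (log2 difference -0.95), and by AT3G13180, of the NOL1/NOP2/sun family of RNA methyltransferases (-0.83). The pStau arrays of AT2G30320 were close together (0.538 to 0.694) below an H2O range of 0.901 to 1.73, whereas 2 pStau arrays of AT3G13180 reached its H2O range. AT3G12930, related to iojap of maize, a protein tied to the plastid ribosome, had the smallest difference of the 8 (-0.69), and only 5 of its 6 same-number comparisons were lower.

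Transcription and chromatin genes numbered 7, AGL54 among them, and 6 of the 7 had overlapping groups. Roles were assigned to members only, after their selection, so class counts of overlapping or separate groups have no background share by class. They describe the members and not these classes of gene in general. Without regard to class, pStau lay wholly below H2O for 33 members, 10.2% of eligible genes and 9.28% of all probes tested. The AP2/ERF family factor AT1G44830 was at 0.438 to 0.722 in H2O (median 0.598) and 0.232 to 0.552 in pStau (median 0.267), and 4 of its pStau arrays, arrays 3 to 6, lay below every H2O array. The basic helix-loop-helix factor AT4G00870 differed by -0.86 on the log2 scale, with a single H2O array, array 2 at 0.368, inside the pStau range. AT4G16610, a C2H2 zinc finger protein, was 2-fold lower in the mean, with pStau array 2 at 0.413 far above the other pStau arrays. The VQ motif protein AT1G80450, of a family that partners WRKY transcription factors, was the member of this class with separate groups (log2 difference -0.58).

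TCP15, a TCP transcription factor that acts in leaf growth and cell proliferation, differed in level between array pairs as well as between groups. The rule required the lower pStau mean in each pair, and the cause of either difference was not tested. Its H2O arrays were 1.23 and 1.28 in the first pair, 0.944 and 0.784 in the second and 0.593 and 0.621 in the third, and its pStau arrays were 0.79 and 0.834, 0.706 and 0.529, and 0.397 and 0.449. Within each pair both pStau arrays were below both H2O arrays, yet across pairs the groups overlapped broadly. The pair differences were -0.63, -0.49 and -0.52, a mean of -0.55 (SD 0.48 in H2O and 0.45 in pStau, n = 6 per group).

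AT5G65360 encodes histone H3.1, the histone H3 form loaded onto DNA during replication. It ranged from 0.277 to 0.492 in H2O (median 0.413) and from 0.225 to 0.367 in pStau (median 0.283), a log2 difference of -0.49 with overlapping groups. A second H3 gene on the array, AT1G09200, was not a member, and its log2 difference of -0.28 ± 0.15 (SE, n = 6 per group) did not pass in limma (adjusted p = 0.181). Its pair differences were -0.018, -0.24 and -0.58. H3 genes have near-identical copies, so both probes may have bound transcripts of several of them.

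Protein folding and turnover held 5 members, 4 of them at least 2-fold lower. The F-box gene AT4G39760 was the only one of the 5 with overlapping groups. AT3G02450, of the FtsH family, which includes membrane-bound proteases, was a dim probe. It was at 0.13 to 0.208 in H2O (median 0.181) and 0.0445 to 0.0977 in pStau (median 0.0761). Its difference of -1.23 on the log2 scale (SD 0.30 and 0.43, n = 6 per group) was nearly the same in the 3 pairs, at -1.06, -1.27 and -1.35. AT2G37580, a RING finger protein, the kind that often acts as a ubiquitin ligase, ran from 0.343 to 0.806 in H2O (median 0.607) and from 0.196 to 0.274 in pStau (median 0.26). In AT2G37580 it was the H2O level that differed between pairs, lowest in arrays 1 and 2, while the pStau arrays were alike. AT2G03200, of the aspartyl protease family, was 2.14-fold lower, and AT4G39760, with an F-box and kelch repeats, 2.08-fold lower with 4 of 6 pStau arrays below every H2O array.

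Cpn60beta3, a beta subunit of the chaperonin that folds proteins in the chloroplast, differed less but cleanly. It was at 0.303 to 0.412 in H2O (median 0.375) and 0.197 to 0.29 in pStau (median 0.24), a log2 difference of -0.62 (SD 0.16 and 0.20, n = 6 per group). Its paralog Cpn60beta4 is on the array as well and was not a member because arrays 1 and 2 differed by -0.063. Over all arrays Cpn60beta4 fell by 0.52 on the log2 scale (SE 0.12, n = 6 per group, limma adjusted p = 0.00808), with -0.70 in arrays 3 and 4 and -0.80 in arrays 5 and 6. That p-value takes the 6 arrays of a group as independent, which the labels do not state.

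Genes of metabolism were the largest class, with 11 members and a median log2 difference of -0.83. AT4G26770, of the CDP-diacylglycerol synthase family, which makes a precursor for phospholipid synthesis, had the largest difference of the class. It was at 0.27 to 0.476 in H2O (median 0.325) and at 0.0828 to 0.214 in pStau (median 0.152), 2.32-fold lower with no overlap. AT3G45770, a mitochondrial enoyl thioester reductase that acts in fatty acid synthesis, varied little between arrays. Its H2O arrays spanned 0.367 to 0.465 and its pStau arrays 0.201 to 0.243, with SDs of 0.11 and 0.09 on the log2 scale and pair differences of -0.92, -1.03 and -0.95 (mean -0.97, n = 6 per group). AT5G14590, an NADP-dependent isocitrate dehydrogenase, also had tight H2O arrays (0.597 to 0.673) with every pStau array below them (0.33 to 0.481).

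Lycopene cyclase family gene AT2G32640 was 2.1-fold lower in the mean, with the largest difference in arrays 3 and 4 (-1.76, against -0.87 and -0.58). AT5G03900, of an iron-sulfur cluster assembly family, was 2.01-fold lower with separate groups. AT1G31220, a formyltransferase of purine synthesis, was 1.89-fold lower, with -0.40, -0.81 and -1.54 in the 3 pairs. The remaining 5 of the class were the alpha/beta hydrolase AT4G34310, the O-fucosyltransferase family gene AT1G35510, the acylphosphatase family gene AT5G03370, the acyltransferase AT3G50270 and the biotin/lipoyl attachment domain protein AT3G56130, with log2 differences between -0.83 and -0.53. Of those 5, the acyltransferase AT3G50270 alone had separate groups.

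A further 6 members had roles outside these classes. AT4G16490, an ARM repeat protein, was at 0.747 to 1.75 in H2O (median 1.2) and 0.312 to 0.738 in pStau (median 0.392), 2.9-fold lower, and the groups were separated by a small gap, between H2O array 1 at 0.747 and pStau array 2 at 0.738. The 2 thaumatin family genes, of a family that includes antifungal defence proteins, were unlike each other in pattern. AT2G24810 differed by -2.55 in arrays 3 and 4 but by -0.45 and -0.41 in the other pairs, and AT2G28790 by -0.54 in arrays 3 and 4 and by -0.93 and -1.05 in the others. AT1G12100, of the lipid-transfer protein family, was 2.06-fold lower, and AT3G50880, of the DNA glycosylase family that starts base excision repair, 1.74-fold lower, both with separate groups. AT4G00170, a VAMP-associated protein of the endoplasmic reticulum membrane, ranged from 0.472 to 1.49 in H2O and 0.426 to 0.953 in pStau. For AT4G00170 the mean difference of -0.55 was about as large as the spread between arrays (pooled SD 0.54, n = 6 per group), and it changed sign, to 0.026, once each array was centred on its median.

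For the other 25 members no role is given, since none was known with enough certainty here. Their log2 differences ran from -1.64 to -0.45 with a median of -0.88, close to the median of all members, and 12 of the 25 had separate groups. At least 2-fold lower were AT2G33180, AT4G18540, AT4G08630, AT3G52550, AT1G03810, AT2G43990, AT4G17440 and AT3G20490. AT4G08630 completed the 12 largest differences, at 0.552 to 1.08 in H2O (median 0.795) and 0.143 to 0.495 in pStau (median 0.297), without overlap. Means 1.5-fold to 2-fold lower were found for AT2G20920, AT3G56290, AT5G52960, AT5G02710, AT1G65500, AT5G42070, AT5G11010, AT1G76240, AT5G40070, AT3G53470, DAL1, AT4G15790, AT2G04360 and AT1G53260. The 3 with smaller differences were AT1G50020, AT2G41120 and AT2G17670.

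Members differed in how even the change was across pairs, a feature looked at after the values were seen. The 3 pair differences lay within 0.3 of each other for 13 members, and spanned at least 1 for 18 and at least 2 for 5, namely AGL54, AT2G33180, AT1G61990, AT3G52550 and AT2G24810. The most even was AT5G40070, with -0.70, -0.72 and -0.68, followed by AT2G41120 and AT3G45770. Evenness did not always go with a tight level. AT2G41120 ranged widely within H2O, from 0.0317 to 0.675, and as widely in pStau, from 0.0341 to 0.662, so that its mean difference of -0.48 was far inside the spread (pooled SD 1.60, n = 6 per group). None of its pStau arrays lay below its lowest H2O array. AT2G41120 and AT2G17670 were the 2 members whose difference was smaller than their pooled SD, and 63 exceeded it.

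Across the 65 members the size of the difference in arrays 3 and 4 went with that in arrays 5 and 6 (Spearman's rho 0.484 across genes), while arrays 1 and 2 showed rho of 0.11 with arrays 3 and 4 and -0.024 with arrays 5 and 6. These are descriptions over genes measured on shared arrays and cut off at -0.3 by the rule, and genes are not replicates. The pStau arrays also differed between pairs as whole arrays. Array medians of the deposited intensities were 0.392 on both of the first pStau arrays and 0.169 to 0.228 on pStau arrays 3 to 6, against 0.405 to 0.485 in H2O, and 13.7% to 17.3% of values were 0 on pStau arrays 3 to 6 against 11.5% to 13.1% in H2O. The part of this in the larger differences of arrays 3 to 6 was not tested.

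At the limit of the rule the choice was a fine one. AT1G03810, AT3G12930 and AGL54 were the last ones inside, each held by arrays 1 and 2 with -0.303, -0.314 and -0.32. Just outside were AT5G24690 and AT3G15900, with -0.2998 and -0.298 in arrays 1 and 2, and AT1G68430, with -0.2996 in arrays 5 and 6. AGL54 thus entered by a narrow margin in the first pair and yet had the largest mean difference.

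In water the members spanned dim to bright genes. Their median H2O level stood at percentile 66.0 of the 692 genes (range 22.8 to 88.4), against 53.9 for the 395 other eligible genes, and in pStau the medians were 50.1 and 58.8. The rule selected on these same levels, so the medians are a description only. In normalized intensity the median member went from 0.547 in H2O to 0.284 in pStau, and the median of the other eligible genes from 0.4 to 0.408. In the gene order of the RefSeq assembly TAIR10.1, none of the 64 members matched to it had another within 10 protein-coding genes, and DAL1 was not placed. The closest couple on a chromosome, AT3G56130 and AT3G56290, were 15 protein-coding genes apart.

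**Figure D3:**
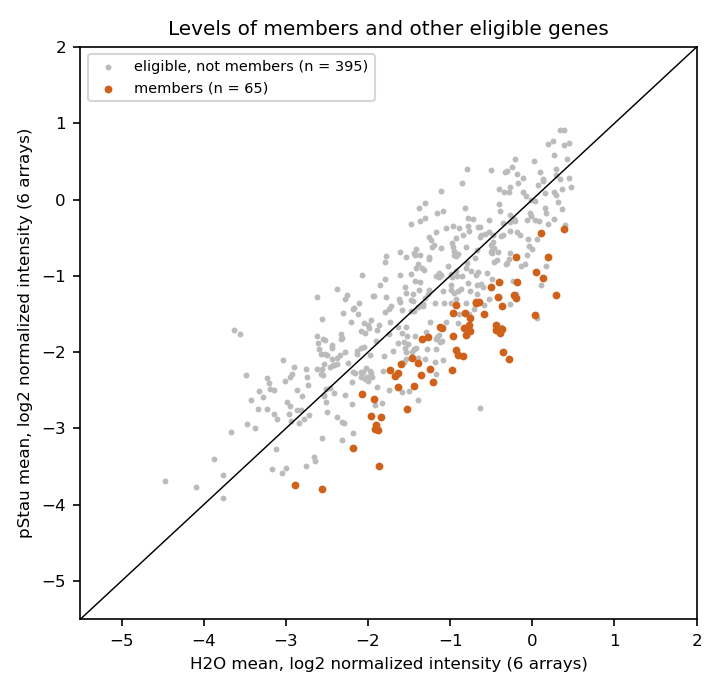
Mean log2 normalized intensity over 6 pStau arrays (vertical axis) against that over 6 H2O arrays (horizontal axis) for the 65 members (orange) and the 395 other eligible genes (grey, including the 6 left out by name), with the line of equal levels. Members lie below the line at dim and bright levels alike, from a mean H2O log2 level of -2.89 in AT2G28790 to 0.38 in AT5G11010.

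The 12 keyword lists of gene functions matched 32 of the 692 genes, because the gene table holds few descriptive names, and only AT5G65360 and Cpn60beta3 of the members were in one. Among the other genes in those 2 lists, limma's test called 1 of 3 chromatin genes higher, chr31, a chromatin remodelling factor (log2 difference 0.29, adjusted p = 0.0265), and 0 lower, also at an unadjusted p under 0.05. Of the 5 others in the folding list 1 was lower, Cpn60beta4, and 1 higher, THIC (0.43, adjusted p = 0.0263), a thiamine synthesis enzyme that the keywords caught by its name alone. In the 3 pairs THIC gave 0.028, 0.37 and 0.89, and chr31 gave 0.24, 0.43 and 0.19. The other 10 lists held no member, and 2 of them, for ribosomes and for membrane transport, matched no gene on the array. For photosynthesis and for pigment synthesis this was set in part by the names left out. PSBY of the former list and Z-ISO and CHLM of the latter met the -0.3 limit in every pair. In limma 2 of 4 photosynthesis genes were lower and 1 higher, and 2 of 3 pigment synthesis genes were lower and 1 higher. The list of kinases, phosphatases and calcium signalling matched only the calmodulin-like calcium sensors CML41 and CML30. CML41 was higher over all arrays (log2 difference 0.43, adjusted p = 0.0373 in limma). Its pair differences were -0.11, 0.65 and 0.75, so it was lower in arrays 1 and 2. CML30 did not pass (-0.015, adjusted p = 0.977). Across all 3256 probes that fit called 35.3%, with 18.8% lower, and it called 23.9% of the eligible genes lower. It called 56 of the 65 members lower, from which nothing is read, because the rule chose them on this contrast.

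The sign of the differences held under the other normalizations with 1 exception. Their size moved most in the table as deposited and after scaling arrays to 1 common total, where the median of all probes moved down too. In the table as deposited all 65 members were lower in pStau, by a median log2 difference of -1.70, where the median of all probes was -0.80. The member median was -0.94 with cyclic loess and -0.82 with zeros ranked, against -0.92 as reported. Centring each array on its median gave -0.88, and there AT4G00170 was at 0.026. The number of calls fell most under 4 other settings, for the members and for all probes. With consecutive arrays as a random block limma called 27 members and 8.11% of all probes lower. Leaving out arrays 3 and 4 of both groups gave 25 members and 6.48% of probes, and leaving out arrays 5 and 6 gave 31 members and 7.89%. With consecutive arrays averaged it called 0 of 65 members and 0.0614% of probes lower, where 53 members and 876 of the 3256 probes, in either direction, had an unadjusted p under 0.05.

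**Figure D4:**
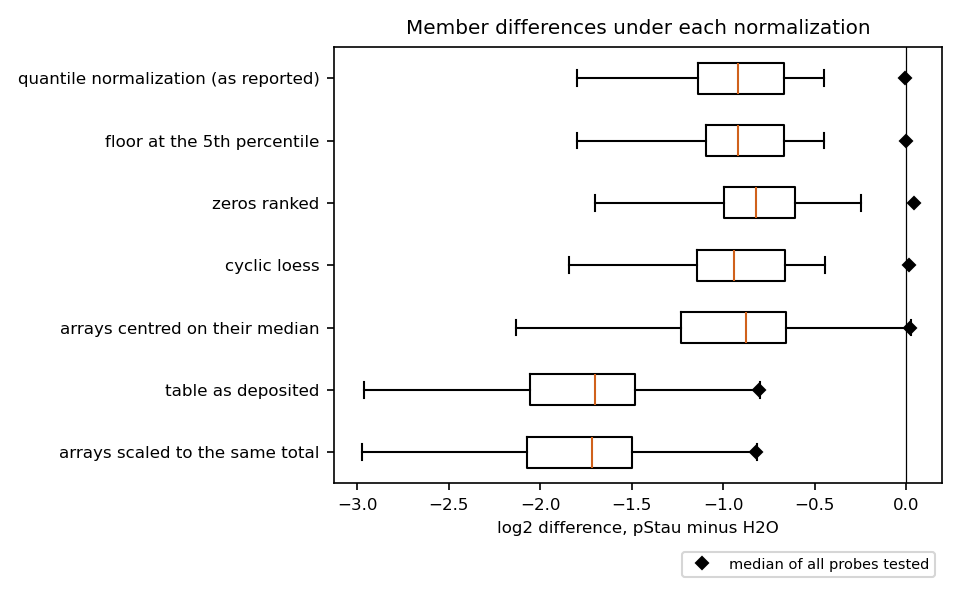
Distribution over the 65 members of the log2 difference between pStau and H2O (horizontal axis) under 7 ways of normalizing the arrays (rows). Boxes span the quartiles, whiskers the whole range, orange lines mark medians, and diamonds the median of all 3256 probes tested, which moves to -0.80 as deposited, where the member median is -1.70.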

How the data were processed

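The authors deposited 1 table of array intensity values for the series, never negative and with a highest value of 100, taken as linear. Background correction, scaling, dyes and scanner are not given in the sources used here, so scaling and centring stay unknown. Probes were named through GEO's platform annotation, updated through the RefSeq table of TAIR10.1 (690 of 692 1-gene probes matched). Of 3439 probes, 870 had several genes and 1877 none.

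Positive values were quantile normalized over the 12 arrays, zeros and values below the 1st percentile (0.0167) were set to it, and log2 was taken. No member had a value of 0. Group means over the 3256 probes above 0 on any array were compared with limma 3.58.1 in R 4.3.3 (lmFit, eBayes, two-sided, Benjamini-Hochberg, threshold 0.05), as background only, and this fit was tested on simulated data. Plots used matplotlib 3.10.9 (Python 3.11.15). Genes given in full were the 12 with the largest mean difference and up to 3 members of each keyword list, and all members are accounted for by class. Ranges or array values are also given for other members, such as TCP15 and AT2G41120, which that rule did not choose. Members, lists and rules were chosen with earlier results of these data known, and the role classes after the members were known. Roles of loci without a name in the gene table are general background, not taken from the files. Protein and promoter features were not analysed here.

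The replicate numbers of the titles were taken to pair the samples in the same-number comparisons and in the replicate block. The main limma fit, which gave the SEs and adjusted p-values, had no term for that pairing. Deviations from group means correlated between same-number arrays with r from 0.31 to 0.54 in all 6 numbers, although the labels do not state the source of a pairing. The number of arrays limits the precision. Alternatives covered normalization, floor, low-level filter, the replicate block, array pairs, variance model and the rule's threshold.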

Additional observations from a re-analysis of the deposited data

Results flagged for a closer look

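Each member's 6 arrays per group were searched for a lowest or highest array that stood apart from the next by more of the group's whole log2 range than Dixon's critical value allows. Among 130 groups of 6 arrays 12 were picked out, in 10 genes. For 6 independent values from a normal distribution about 1 in 20 groups is picked, here 6.5. The 12 cannot be weighed against that number. The 6 arrays of a group are not known to be independent, and the rule chose the members on these same values. In H2O, array 1 was low in AGL54 (gap 0.714 of the range) and in AT4G00170 (0.705) and high in AT1G80450 (0.632). H2O array 2 was low in AT4G00870 (0.66) and high in AT3G50270 (0.656), and H2O array 3 was low in AT2G17670 (0.697).

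In pStau, array 6 was low in AT4G33500 (0.702) and AT1G76240 (0.766). Array 1 was high in AT4G00870 (0.642) and AT4G34310 (0.646), array 2 was high in AT4G16610 (0.718), and array 3 was low in AT2G17670 (0.644). Thus AT2G17670 was low on array 3 of both groups, which share that number. For AGL54 the low H2O array makes the first-pair difference small, as does the position of pStau arrays 1 and 2. No cause of these single arrays was tested.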

How the results depend on the processing

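The count of genes meeting the rule, 65 as reported, was 173 on the values as deposited and 168 after scaling every array to 1 common total, where all probes shift down and all 65 members are kept. It was 27 at a limit of -0.5 in place of -0.3. Centring arrays on their median gave 63 genes, 55 of them members, cyclic loess 60 with 56 members and ranking zeros 58, all members. Leaving out 1 replicate number of both groups gave 62 to 68.

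Members called lower by limma, 56 as reported, were 27 with consecutive arrays as a random block, 0 with consecutive arrays averaged (53 at an unadjusted p under 0.05), 25 without arrays 3 and 4 and 31 without arrays 5 and 6, and 42 to 56 without 1 replicate number. With the replicate block, which uses the pairing by number, 63 members and 1279 probes passed, and no count moved by over 1.5 times under it. Over all probes the 1148 calls (536 higher, 612 lower) became 1808 after scaling to 1 total (180 higher, 1628 lower), 524 with the random block, 3 with averaged arrays, 484 without arrays 3 and 4, 515 without arrays 5 and 6 and 743 (without number 5) to 1177 without 1 replicate number. The split was 183 higher and 1519 lower as deposited. Centring each array on its median gave 866 and 517. Averaging leaves 3 values per group, and the causes of the other changes were not tested. Under median centring the difference of AT4G00170 reversed to 0.026. Single-member differences moved by more than 1 SD for 61 members as deposited and for 5 with median centring. Dim signal limits AT2G28790 and AT3G02450 most, and both dropped out when the dimmest 25% of probes was removed.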
